A study of Homo sapiens with 3 samples.

Results

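Voltage-gated sodium, calcium and potassium channels are described here through 36 genes in 3 single-cell RNA libraries. The 36 were chosen by name, with earlier results of these data known, out of 32732 genes that all 3 gene tables share by Ensembl ID. They are 5 sodium channel alpha subunits, 3 sodium channel beta subunits, 8 calcium channel alpha1 subunits, 4 calcium channel beta subunits, 4 calcium channel alpha2delta subunits and 12 potassium channels. All 36 were found.

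Voltage-gated channels open when the membrane is depolarised. In neurons, sodium channels carry the upstroke of the action potential, potassium channels repolarise the cell and set its firing rate, and calcium channels couple spikes to transmitter release and to signalling in the nucleus. The pore is formed by the alpha subunit, while beta and alpha2delta subunits bring it to the membrane and tune its gating. Many of these genes span very long stretches of the genome, nearly all of it intron, so their level in a library also depends on how far unspliced RNA was captured and counted.

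The study followed BJ cells, an established human fibroblast line, through a chemical induction. The day 5 and day 3 libraries hold cells labelled as induced neurons (FiNs), and the day 0 library holds BJ cells labelled as fibroblasts. Each group is 1 library, and all 3 carry the labels WT and reprogramming. Per the labels' protocol, cells on poly-D-lysine received an induction medium with forskolin, which turns on adenylyl cyclase and so raises cAMP, from day 2 a maturation medium with forskolin, and from day 5 a neuronal medium without it. The sources used here do not say if the day 0 cells had met forskolin. For days 0 and 3 the labels name nuclei and an ATAC kit, and for day 5 dissociated cells with a gene expression kit, so preparation and day cannot be told apart. The libraries hold gene counts, so the ATAC kit named for days 0 and 3 is in doubt, and the stated preparation could not be checked.

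After filtering, 16773 cells remained at day 0, 11454 at day 3 and 9219 at day 5, with a median of 14039, 1324 and 4374 UMIs per cell. Cell barcodes shared between libraries numbered 27 to 63. MALAT1, a nuclear RNA, took 3.14%, 21.6% and 7.35% of UMIs at days 0, 3 and 5. Mitochondrial genes took 6.45%, 0.744% and 4.94%, and ribosomal protein genes 16.1%, 3.90% and 2.09%, so days 0 and 3 differed in RNA content under the same stated preparation. The part of this in the ratios of day 3 over day 0 was not tested. Genes with over 100000 bases of intron took 8.84%, 13.7% and 46.6%. Pan-neuronal markers summed to 95.2, 118 and 4894 CPM, with 3, 4 and 19 of 19 markers at 10 CPM or more, and mesenchymal or fibroblast markers to 4646, 6821 and 278 CPM. The day 3 library, labelled as induced neurons, thus had few pan-neuronal transcripts. CPM is a gene's UMIs, summed over the cells of a library, relative to all UMIs on the shared genes and scaled to the same total in each library. A difference was called only with 10 CPM or more on one side or the other, a ratio of 2 or more, and separate exact Poisson 95% intervals. With 1 library per group there was no test, and intervals cover counting error only.

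The 36 genes together took 523 CPM at day 0, 509 CPM at day 3 and 2494 CPM at day 5. At 10 CPM or more stood 7 of them at day 0, 9 at day 3 and 27 at day 5. In none of the libraries did 8 genes reach 10 CPM. These were SCN1A, the sodium channel beta subunits SCN2B and SCN4B, the T-type calcium channel CACNA1I, CACNB1, CACNA2D4, and the axonal potassium channels KCNA1 and KCNA2, with levels between 0 and 9.19 CPM. KCNA1 had no UMI in any library, which allows up to 0.0122 CPM at day 0, 0.160 CPM at day 3 and 0.0589 CPM at day 5, the level of 3 UMIs.

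Since the genes differ in span, levels were compared between genes per 100000 bases of gene. On this scale the day 0 library was led by CACNB3, a calcium channel beta subunit, at 111 CPM, SCN9A, a sodium channel, at 50.8 CPM, and KCNMA1, the large-conductance calcium-activated potassium channel, at 40.8 CPM. At day 3 CACNB3 led at 429 CPM. At day 5 the order was led by the sodium channel subunits SCN3B at 90.7 and SCN3A at 89.8 CPM, the calcium channel subunits CACNA2D1 at 82.0 and CACNB2 at 69.1 CPM, and the potassium channel KCNB2 at 53.4 CPM. Whether UMIs rise with span in these libraries was not tested, so these orders hold on this scale only. In UMIs per gene the order differed. At day 0 KCNMA1 had 77351 UMIs and CACNB3 4158, and at day 5 CACNA2D1 had 20768 UMIs and SCN3B 1203. Each value below is CPM per gene unless a length is named.

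**Figure D1:**
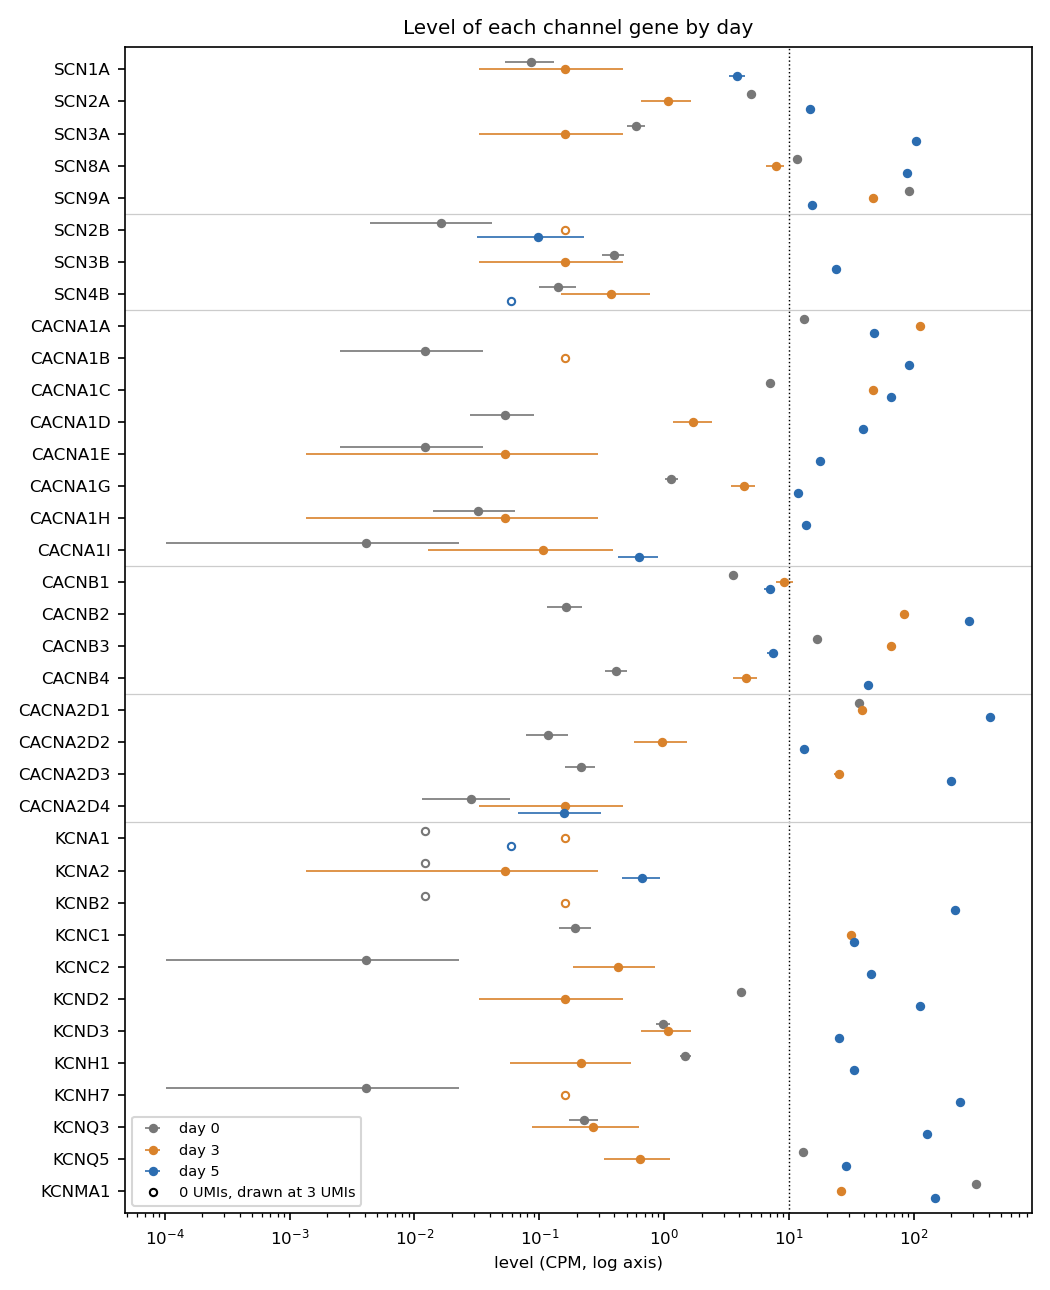
Level of each of the 36 channel genes (CPM, log axis) at days 0, 3 and 5, grouped from top to bottom as sodium alpha, sodium beta, calcium alpha1, calcium beta, calcium alpha2delta and potassium channels; points are library sums, bars exact Poisson 95% intervals, hollow points genes with 0 UMIs drawn at the level of 3 UMIs, and the dotted line marks 10 CPM. At day 5, 27 genes lie at or right of the line, against 9 at day 3 and 7 at day 0.

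Between day 5 and day 3, 28 genes reached 10 CPM in either library, and 23 of these were higher and 3 lower at day 5. Of all 12623 genes that reached that level, 36.5% were higher and 28.7% lower. Among genes with over 100000 bases of intron the background was 74% higher and 7.12% lower, and 20 of the 24 channel genes of that length were higher, a share of 83.3% and thus near its background. The median log2 ratio was 4.15 over the 28 channel genes and 0.16 over all genes at that level. Day 5 was also set against day 0, where 25 of 28 genes were higher and 3 lower, against 49.1% and 26% of all genes, and 84% and 5.49% of long-intron genes. These 2 comparisons share the day 5 library.

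Between day 3 and day 0, 11 genes could be compared. Of these, 6 were higher at day 3 and 2 lower, with 5 of the 10 long-intron genes among the higher ones, against a background of 37.6% higher and 19.1% lower among all genes, and 47.5% and 11.9% among long-intron genes. Shares near the background were thus seen here too. The split of the background depends on scaling, since the median log2 ratio of 14626 genes was 0.81 with library totals and -0.39 with TMM factors. With TMM factors 5 of the channel genes were higher and 5 lower.

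Among the sodium channel alpha subunits different genes led at day 0 and at day 5. SCN9A, the subunit of sensory and sympathetic neurons, stood at 91.9 CPM at day 0, at 47.4 CPM at day 3 and at 15.3 CPM at day 5. It was 3.10-fold lower at day 5 than at day 3, while other genes of its intron length had a median log2 ratio of 2.41. SCN3A, a subunit best known from the fetal brain, stood at 0.596 CPM at day 0, at 0.160 CPM (3 UMIs) at day 3 and at 105 CPM at day 5, 653-fold above day 3 (interval 223 to 3166). SCN3A was thus nearly absent before day 5. SCN8A, the main subunit of the mature axon initial segment, stood at 11.7, 7.80 and 88.2 CPM at days 0, 3 and 5, and was 11.3-fold higher at day 5 than at day 3. SCN2A, the early subunit of excitatory axons, stood at 4.92, 1.07 and 14.8 CPM, and SCN1A, typical of inhibitory neurons, at 0.0852, 0.160 and 3.85 CPM. Per 100000 bases, SCN9A led the 5 subunits at day 0, at 50.8 CPM, and SCN3A at day 5, at 89.8 CPM, followed by SCN8A at 39.6 CPM.

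Of the sodium channel beta subunits, which act as gating partners and adhesion molecules, only SCN3B reached 10 CPM. It stood at 0.394, 0.160 and 23.6 CPM at days 0, 3 and 5, and the day 5 level was 147-fold that of day 3 (interval 50.3 to 715). SCN3B has 16.6 kb of intron, and other genes of that length had a median log2 ratio of 0.08 between day 5 and day 3. Its log2 ratio was 7.20, so SCN3B stood far from other genes of like length. SCN2B and SCN4B were at or below 0.374 CPM. SCN2A and SCN3A, neighbours on chromosome 2, overlap on opposite strands, and the sources used here do not say whether reads were counted by strand.

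The calcium channel alpha1 subunits divide by current type. CACNA1A, the P/Q-type channel of presynaptic terminals, stood at 13.1, 112 and 48.2 CPM at days 0, 3 and 5. It was 8.51-fold higher at day 3 than at day 0, and 2.32-fold lower at day 5 than at day 3. CACNA1B, the N-type presynaptic channel, had 3 UMIs at day 0, 0 at day 3 and 4690 at day 5. With the 0 UMIs of day 3 taken as 3 UMIs, the most that such a count allows at the one-sided 95% level, its day 5 level of 92.1 CPM was at least 574-fold above day 3. With the two-sided interval used for other genes the lower limit was 467-fold. Both presynaptic types were thus present at day 5, and CACNA1A alone of them at day 3.

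The L-type subunits, which carry calcium signals to the nucleus, also parted. CACNA1C stood at 7.09, 46.8 and 65.2 CPM at days 0, 3 and 5, with most of the difference between days 0 and 3, at 6.59-fold. CACNA1D stood at 0.0527, 1.71 and 39.1 CPM, and was 22.9-fold higher at day 5 than at day 3. The CACNA1C span also holds part of DCP1B on the other strand, which stood at 9.18, 76.8 and 32.5 CPM. CACNA1E, the R-type channel, reached 17.7 CPM at day 5 against 1 UMI at day 3 and 3 UMIs at day 0.

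The T-type channels open near rest and support burst firing. CACNA1G stood at 1.14, 4.33 and 11.8 CPM at days 0, 3 and 5, and CACNA1H at 0.0325, 0.0534 and 13.6 CPM. Both were higher in day 5 barcodes of 500 to 1000 UMIs, too poor to be called cells, where CACNA1G stood at 15.6 CPM and CACNA1H at 21.1 CPM. SCN3B and CACNA2D2 were also higher in these barcodes, at 28.3 and 20.3 CPM, than in day 5 cells. For these 4 genes the true part of free RNA in the level of day 5 cells was not tested. Only a subtraction at an assumed 10% was made, and it is named in the closing section.

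The beta subunits, which escort the alpha1 subunit to the membrane, moved in different directions between days 3 and 5. CACNB3, with only 7995 bases of intron, stood at 16.9, 65.0 and 7.44 CPM at days 0, 3 and 5. It was 3.86-fold higher at day 3 than at day 0 and 8.74-fold lower at day 5 than at day 3, while genes of its intron length had a median log2 ratio of -0.23 between day 5 and day 3. With TMM factors its log2 ratio between day 3 and day 0 was 0.75 in place of 1.95, and the call was lost. CACNB2, at chr10:18140677-18543557 (plus strand) with 394 kb of intron, stood at 0.162, 82.8 and 278 CPM, so that it was 510-fold higher at day 3 than at day 0 and 3.36-fold higher at day 5 than at day 3. CACNB4 stood at 0.414, 4.49 and 43.0 CPM and CACNB1 at 3.56, 9.19 and 7.01 CPM. Per 100000 bases of gene span, CACNB3 led the 4 beta subunits at days 0 and 3, and CACNB2 led them at day 5, with 69.1 CPM against 49.1 CPM for CACNB3.

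An antisense gene, AL450384.2, overlaps CACNB2 on the opposite strand. It stood at 0.905, 175 and 39.4 CPM at days 0, 3 and 5. Its level was high on the same day as the first high level of CACNB2, and without knowledge of strand use in counting the reads of both cannot be told apart. CACNA1C, KCNC1 and CACNA2D3 each overlap a gene of at least 1 CPM as well. Without the 16 channel genes that do so, fewer were left to call. Of those left, 2 were higher at day 3 than at day 0, and 11 at day 5 than at day 3. No share over all genes stands beside these counts, so they do not tell a change in share from the loss of genes.

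The alpha2delta subunits, extracellular proteins that bring calcium channels to the synapse and include the target of gabapentin, were all higher at day 5 than at day 3 but for CACNA2D4. CACNA2D1, at chr7:81946444-82443798 (minus strand, GENCODE 29 on GRCh38), stood at 36.2, 38.3 and 408 CPM at days 0, 3 and 5. CACNA2D3, at chr3:54122547-55074557 (plus) with 947 kb of intron, stood at 0.215, 25.2 and 198 CPM, 117-fold higher at day 3 than at day 0 and 7.86-fold higher at day 5 than at day 3. CACNA2D2 reached 13.1 CPM at day 5 against 0.962 CPM at day 3 and 0.118 CPM at day 0. Other genes in their bin of intron length, from 262861 to 2463416 bases, had a median log2 ratio of 3.91 between day 5 and day 3. CACNA2D1 at 3.41 and CACNA2D3 at 2.97 lay below that median.

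The promoters of 4 genes are shown here, each from 250 bases before to 50 after an annotated start, from RefSeq on GRCh38.p14. CACNA2D1 and CACNA2D3 are shown because different neuron-like clusters held them, CACNB2 for its first high level at day 3, and KCNMA1 because it was lower at days 3 and 5 than at day 0. For each gene the window of the most upstream start is given, and for KCNMA1 also that of its internal start. Capitals mark TGACG, one side of the cAMP response element TGACGTCA that CREB binds, or TGANTCA, the AP-1 element. The windows are chr7:82443907-82444206 (minus strand), chr3:54122302-54122601 (plus), chr10:18140174-18140473 (plus), chr10:77637759-77638058 (minus) and chr10:77350712-77351011 (minus), in that order.
CACNA2D1: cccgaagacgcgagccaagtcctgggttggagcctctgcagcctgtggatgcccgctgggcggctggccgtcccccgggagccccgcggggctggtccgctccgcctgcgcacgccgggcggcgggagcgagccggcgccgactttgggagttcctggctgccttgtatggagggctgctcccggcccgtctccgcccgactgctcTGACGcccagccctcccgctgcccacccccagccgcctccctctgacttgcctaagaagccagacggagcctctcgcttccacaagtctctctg
CACNA2D3: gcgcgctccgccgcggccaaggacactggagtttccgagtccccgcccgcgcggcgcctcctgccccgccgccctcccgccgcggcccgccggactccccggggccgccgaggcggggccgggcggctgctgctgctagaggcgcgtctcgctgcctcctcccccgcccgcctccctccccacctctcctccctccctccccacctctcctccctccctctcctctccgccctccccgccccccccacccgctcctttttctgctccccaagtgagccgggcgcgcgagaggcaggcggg
CACNB2: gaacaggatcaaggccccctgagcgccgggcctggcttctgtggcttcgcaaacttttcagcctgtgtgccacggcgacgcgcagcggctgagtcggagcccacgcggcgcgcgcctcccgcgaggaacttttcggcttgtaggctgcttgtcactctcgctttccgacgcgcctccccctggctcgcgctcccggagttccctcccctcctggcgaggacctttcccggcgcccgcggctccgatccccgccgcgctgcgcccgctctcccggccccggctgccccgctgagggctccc
KCNMA1 upstream start: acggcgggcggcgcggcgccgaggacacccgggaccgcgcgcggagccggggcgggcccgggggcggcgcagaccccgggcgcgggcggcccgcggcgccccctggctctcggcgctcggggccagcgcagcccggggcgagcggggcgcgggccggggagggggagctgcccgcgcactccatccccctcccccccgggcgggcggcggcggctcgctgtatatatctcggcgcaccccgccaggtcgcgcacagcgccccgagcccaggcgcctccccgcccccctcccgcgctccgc
KCNMA1 internal start: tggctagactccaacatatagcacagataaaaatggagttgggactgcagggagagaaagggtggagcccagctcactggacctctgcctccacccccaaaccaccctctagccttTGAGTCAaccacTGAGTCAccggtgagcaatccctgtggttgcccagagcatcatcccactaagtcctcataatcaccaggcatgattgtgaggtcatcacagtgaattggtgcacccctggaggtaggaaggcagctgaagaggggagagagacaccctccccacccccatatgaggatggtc

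TGACG was in the CACNA2D1 window, and TGANTCA was in the KCNMA1 window of the internal start, 2 times, but not in that of the upstream start. CACNB2 has 4 windows in the table, of which 2, both at internal starts, hold TGACG. Which start was in use was not tested.

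Of the 36 genes, 27 matched the RefSeq table, with 43 windows, and both strands were searched. The whole cAMP response element was in 0 of 43 windows and in 1.85% of all 35116 windows. TGACG was in 14.0% of the channel windows and 24.6% of all, and TGANTCA in 6.98% and 7.71%. GGGCGG, the GC box, was in 51.2% of the channel windows and 45.0% of all. The median GC content was 66.7% in the channel windows and 58.7% in all. These matches describe the letters of the windows only.

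The potassium channels gave the largest ratios. KCNB2, a delayed rectifier, had 0 UMIs at days 0 and 3 and stood at 214 CPM at day 5, at least 1334-fold above day 3 on the same footing (two-sided lower limit 1085-fold). KCNH7, of the erg family that shapes recovery between spikes, had 1 UMI at day 0, 0 at day 3 and stood at 233 CPM at day 5, at least 1452-fold above day 3 (two-sided lower limit 1180-fold). KCND2, which carries the A-type current of dendrites, stood at 4.12, 0.160 and 112 CPM at days 0, 3 and 5, and its day 5 level was 700-fold that of day 3 (interval 239 to 3394). These 3 genes have between 397 and 471 kb of intron and fall in the bin of 262861 to 2463416 bases. Other genes of that bin had an upper quartile of 6.62 for the log2 ratio between day 5 and day 3. All 3 genes exceeded it, with 10.4, 10.5 and 9.45.

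KCNQ3 and KCNQ5 form the M-current, which damps repetitive firing. KCNQ3 stood at 0.227, 0.267 and 128 CPM at days 0, 3 and 5, while KCNQ5 stood at 12.9, 0.641 and 28.4 CPM. KCNQ5 was thus 20.2-fold lower at day 3 than at day 0. Its ratio between day 5 and day 0 was 2.20 with library totals, and with TMM factors there was no difference left.

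KCNMA1, at chr10:76869601-77638369 (minus strand), links calcium entry to repolarisation. It was 11.9-fold lower at day 3 than at day 0 and 5.57-fold higher at day 5 than at day 3, with 314, 26.3 and 147 CPM at days 0, 3 and 5. It was still 2.14-fold lower at day 5 than at day 0. Genes in its bin of intron length, from 257614 to 2463416 bases, had a median log2 ratio of 5.54 between day 5 and day 0, against -1.10 for KCNMA1.

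The fast delayed rectifiers KCNC1 and KCNC2 serve fast firing. KCNC1 stood at 0.195, 31.4 and 33.2 CPM, level between days 3 and 5 at a ratio of 1.06, whereas KCNC2 stood at 0.00406, 0.428 and 45.6 CPM. KCND3, another A-type channel, stood at 0.978, 1.07 and 25.02 CPM, and KCNH1, of the eag family, at 1.48, 0.214 and 32.9 CPM. All 4 were therefore above 10 CPM at day 5, and KCNC1 alone of them at day 3.

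Intron length was then set against the ratios. Across all 22667 genes with UMIs enough for a bin, the rank correlation between total intron length and the log2 ratio of day 5 over day 3 was 0.48. Over the 33 channel genes among them it was 0.26. Both describe these 2 libraries across genes that share them, and genes are not replicates. For day 3 over day 0 the correlations were -0.09 over all genes and -0.09 over the channel genes. These also hold sparse genes, whose levels under 3 UMIs entered as 3 UMIs. That level was 0.0122 CPM at day 0 and 0.160 CPM at day 3, and its part in the correlations was not tested. Among long-intron genes at 10 CPM or more in either library, 47.5% were higher at day 3 and 11.9% lower. Over all genes at that level the shares were 37.6% and 19.1%. The median channel gene has 191 kb of intron, and 27 of the 36 have over 100000 bases.

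Each gene was therefore read against other genes in its bin of intron length, with 20 bins of equal number. For day 5 over day 3 the bin of longest introns ran from 262861 to 2463416 bases and held 14 channel genes. Within that bin length is matched only loosely. For day 5 over day 3, 13 of the 28 compared channel genes lay above the upper quartile of their bin and 6 below the lower quartile. Furthest above were SCN3A, which exceeded its bin median by 7.95 on the log2 scale, SCN3B by 7.12, CACNA1B by 6.76, KCNH7 by 6.59, KCNB2 by 6.47, KCND2 by 5.54 and CACNA1H by 5.47. Furthest below were CACNA1A at -5.13, SCN9A at -4.04, CACNA1C at -3.43, CACNB3 at -2.90 and CACNB2 at -2.16. A log2 ratio at least 1 above that of the bin, together with the call, was reached by 16 of the 28, and one at least 1 below by 3. For day 5 over day 0 these counts were 16 and 3, and for day 3 over day 0, 6 and 2 of 11. The bins also hold genes under 10 CPM. The share of all compared genes beyond these quartiles and limits was not counted, so none of these counts has a background beside it.

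**Figure D2:**
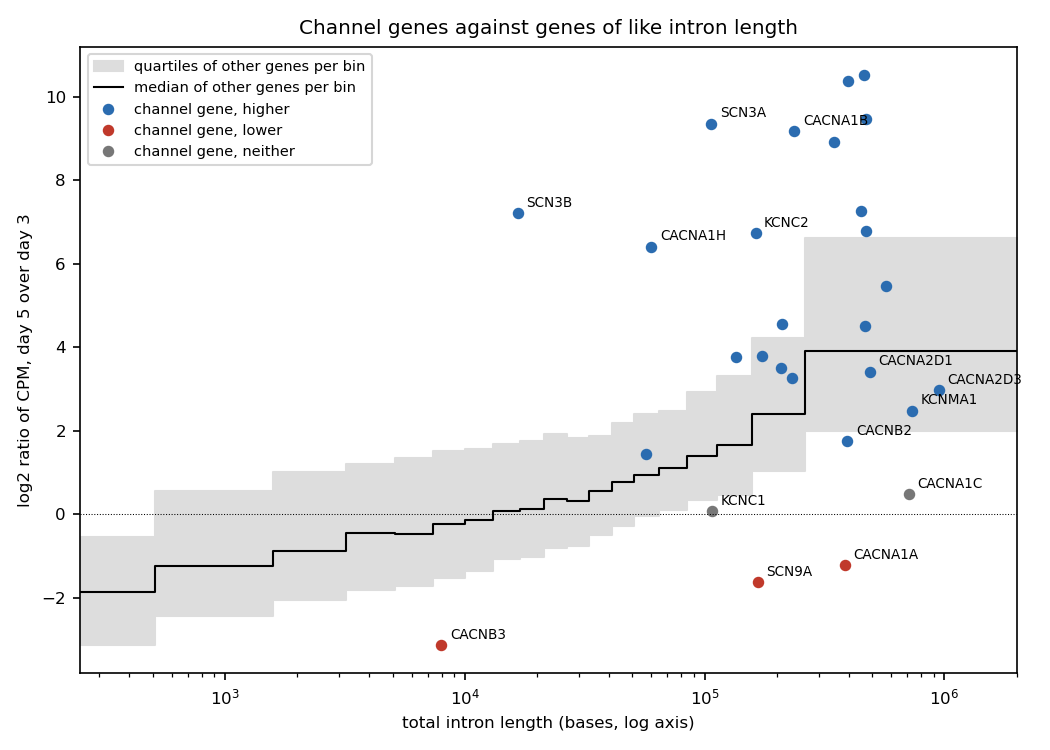
Log2 ratio of CPM of day 5 over day 3 against total intron length (bases, log axis) for the 28 channel genes at 10 CPM or more in either library, coloured by call; ratios against under 3 UMIs at day 3 use 3 UMIs. The stepped line and band are the median and quartiles of other genes in bins of intron length, genes under 10 CPM included. Above the band lie 13 channel genes and below it 6, and the share of all compared genes beyond it was not counted.

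A split inside the day 0 library bears on the same reading. There, 3 clusters with 7334 cells had 0.169% of UMIs from MALAT1, against 3.32% in the other 6 clusters with 9439 cells, and a median of 1364 against 22708 UMIs. Of 7 channel genes that reached 10 CPM, 6 were lower in the low-MALAT1 clusters, against 59.5% of all genes and 79.1% of long-intron genes, and 0 were higher, against 2.5% and 0.759%. SCN9A stood at 10.3 CPM in the low-MALAT1 clusters and at 96.7 CPM in the others, CACNA2D1 at 5.47 and 38.0 CPM, and CACNA1A at 1.31 and 13.8 CPM. KCNMA1, with 733 kb of intron, was the exception, at 247 CPM in the low-MALAT1 clusters and 318 CPM in the others. Its log2 ratio of -0.36 stood above the bin median of -1.48. The share of nuclear RNA, depth and cell state move together in this split, and their parts in it were not tested.

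**Figure D3:**
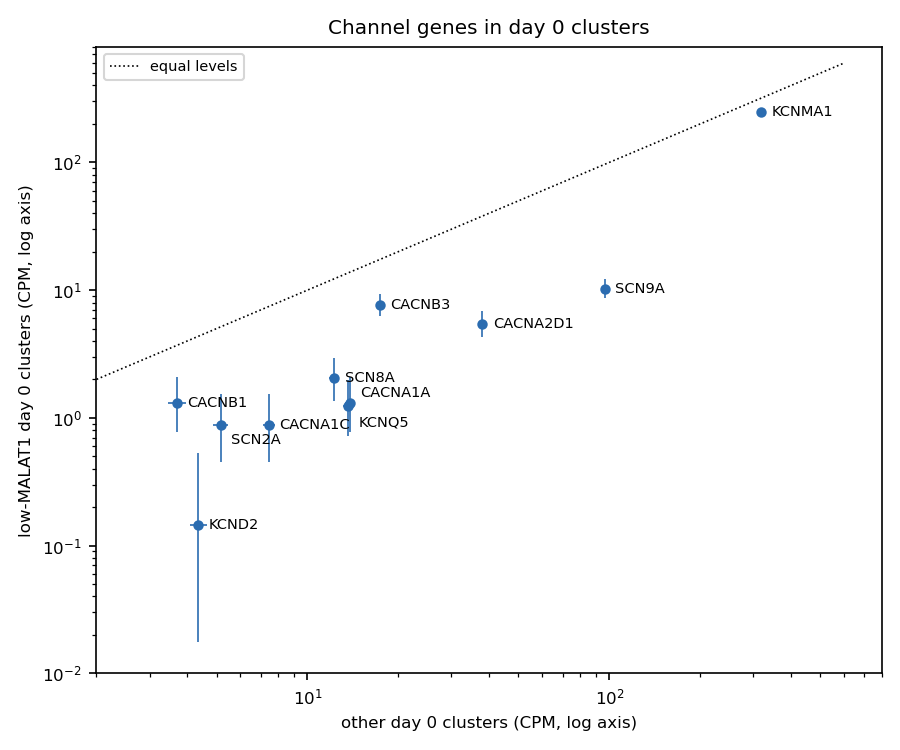
Level of each channel gene with at least 3 CPM in the other day 0 clusters (CPM, log axes), in low-MALAT1 day 0 clusters (vertical) and in the other day 0 clusters (horizontal), with exact Poisson 95% intervals as bars; the dotted line marks equal levels. KCNMA1 lies closest to the line, and SCN9A, CACNA2D1, CACNA1A and KCNQ5 lie further below it.

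Within day 5, cells were clustered without any channel gene. Of 13 clusters, 6 had at least 3 of 19 pan-neuronal markers 2-fold above the rest and are called neuron-like, with 2472 cells, 26.8% of the library. They had a median of 4824 UMIs, against 4236 in the other 6747 cells, and long-intron genes took 50.4% of UMIs, against 44.7% (at day 3 they took 13.7%). Of 29 channel genes at 10 CPM or more in either group, 18 were higher in neuron-like cells and 1 lower. Over all 11122 genes at that level, 7.57% were higher and 6.73% lower, and among long-intron genes 15.7% and 10.3%. The channel genes' share of 62.1% higher lay well above both backgrounds, and the median log2 ratio was 1.56 over them and -0.16 over all. The list was chosen with earlier results of these data known, and the part of that choice in this excess cannot be told apart. Of 12 other voltage-gated alpha subunits 1 was higher and 3 lower, and of 16 other auxiliary subunits 5 were higher and 1 lower. Read against intron length, 22 of the 29 lay above the upper quartile of their bin and 2 below the lower. The bins also hold genes under 10 CPM, and the share of all compared genes beyond these quartiles was not counted. Pan-neuronal markers summed to 8416 CPM in neuron-like cells and 3140 CPM in the others, which follows from the rule that named these clusters. Beside this, neural progenitor markers summed to 1348 and 3223 CPM, mesenchymal or fibroblast markers to 146 and 343 CPM, and cycling markers to 421 and 806 CPM. The part of these differences in the result for the channel genes was not tested. The other cells were not all without neuronal markers. Among them, cluster 5, with 719 cells, had 2 of 19 pan-neuronal and 4 of 7 neuronal precursor markers 2-fold above the rest.

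The genes that differed most were KCND2, at 303 CPM in neuron-like cells and 17.0 CPM in the others, a 17.9-fold difference, CACNA1B at 243 and 16.9 CPM, and CACNA2D3 at 522 and 36.9 CPM. Neuron-like cells held 89.9% of all KCND2 UMIs of day 5, 87.8% of those of CACNA1B and 87.6% of those of CACNA2D3. SCN2A stood at 35.3 CPM in neuron-like cells and 4.62 CPM in the others, SCN3A at 234 and 40.4 CPM, and SCN9A at 29.3 and 8.32 CPM. So SCN9A, which was lower in the day 5 library than in the others, was still higher in its neuron-like cells than in the rest of it. CACNA1A stood at 106 CPM in neuron-like cells and 19.4 CPM in the others, near its library level of 112 CPM at day 3.

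A second group of channel genes did not follow the neuron-like cells. KCNC2 was lower there, at 22.5 CPM against 57.1 CPM in the other cells. Its level in the other cells came mostly from cluster 0, at 116 CPM. The second highest cluster was neuron-like cluster 8, at 70.5 CPM. The lowest was cluster 1, which is not neuron-like, at 2.02 CPM. So KCNC2 was not lower in neuron-like cells than in each of the other clusters. KCNMA1 stood at 132 CPM in neuron-like cells and 154 CPM in the others, CACNB2 at 321 and 257 CPM, KCND3 at 24.8 and 25.2 CPM, KCNQ5 at 20.4 and 32.4 CPM, and CACNA1H at 14.1 and 13.4 CPM. SCN8A, at 129 and 67.8 CPM, missed the 2-fold limit with a ratio of 1.91. CACNB2 and KCND3 differed between neuron-like clusters. CACNB2 stood at 577 CPM in cluster 7 and 83.0 CPM in cluster 6, and KCND3 at 70.8 CPM in cluster 8 and 3.98 CPM in cluster 6.

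**Figure D4:**
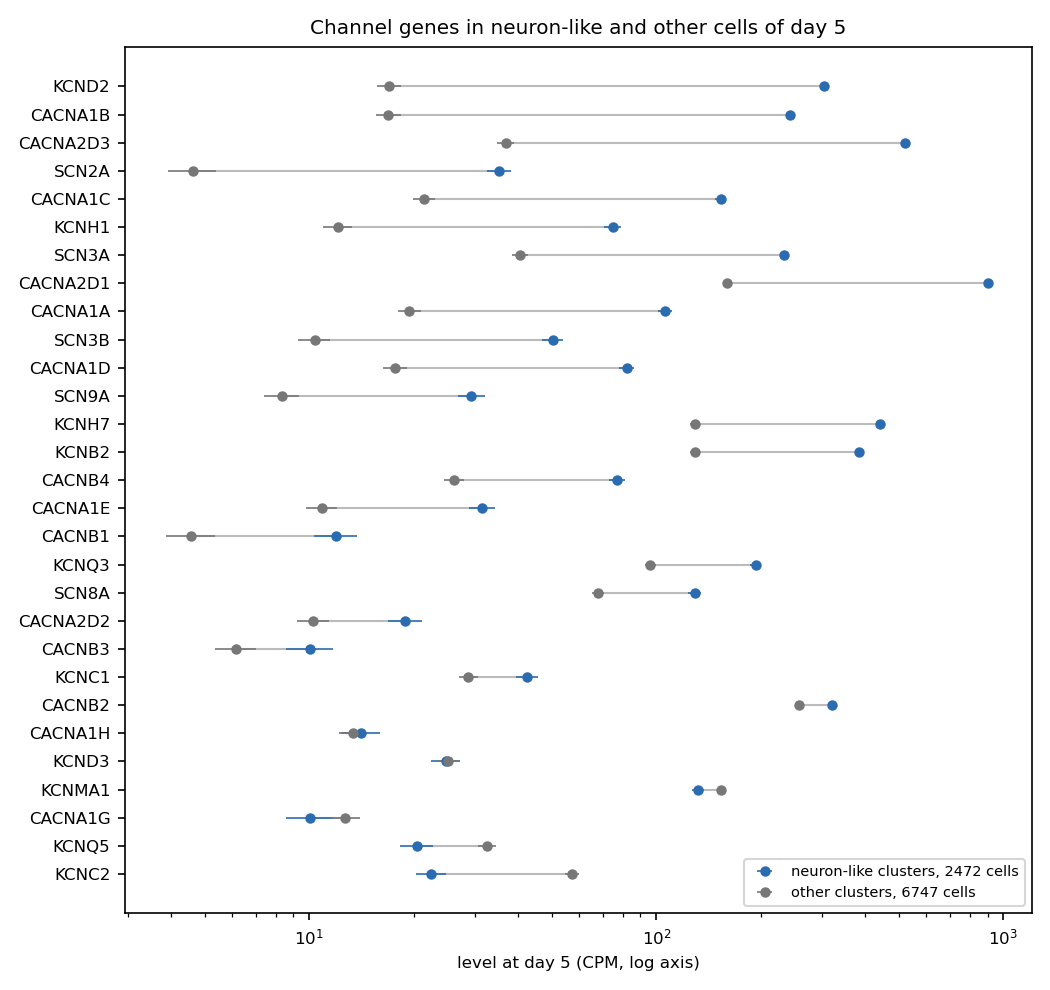
Level at day 5 (CPM, log axis) of the 29 channel genes at 10 CPM or more in neuron-like cells (blue) or in the other cells (grey), sorted by their ratio, with exact Poisson 95% intervals as bars. From KCND2 at the top to KCNQ3, 18 genes are at least 2-fold higher in neuron-like cells, and KCNC2 at the bottom is lower.

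Counted per cell, after thinning every day 5 cell to 1000 UMIs, the median neuron-like cell held UMIs of 3 channel genes and the median other cell of 1. No channel gene was seen in 4.13% of neuron-like cells and in 31.2% of the others. Before thinning the medians were 9 and 3. CACNA2D1 was the gene seen most often after thinning, in 40.2% of neuron-like cells (38.2 to 42.1, exact binomial) and 11.7% of the others (10.95 to 12.5), or 63.7% and 35.0% before thinning.

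The neuron-like clusters differed from each other in the alpha2delta subunits. In cluster 6, marked by the glutamate transporter gene SLC17A6, CACNA2D1 stood at 2524 CPM and CACNA2D3 at 55.7 CPM. In cluster 9, with SLC17A8 and ISL1, they stood at 2114 and 143 CPM. In cluster 7, which had 5 of 5 GABA and glycine markers above the rest, the order was turned, with CACNA2D1 at 155 CPM and CACNA2D3 at 1850 CPM. Cluster 10, with SLC6A5 and GAD2, had 243 and 930 CPM. The other neuron-like clusters held both, with CACNA2D1 at 600 CPM and CACNA2D3 at 472 CPM in cluster 3, which had 4 of 5 GABA and glycine markers above the rest, and 866 and 335 CPM in cluster 8. The split was thus seen in clusters 6, 9, 7 and 10 and not in these, which have more UMIs per cell. Among cells thinned to 1000 UMIs, CACNA2D1 was seen in 69.2% of cluster 6 and 71.1% of cluster 9, but in 9.55% of cluster 7 (6.78 to 13.0) and 9.84% of cluster 10 (6.40 to 14.3), intervals that hold the 11.7% of the cells outside the neuron-like clusters. CACNA2D3 was seen in 64.2% of cluster 7 and 42.6% of cluster 10, against 3.13% of cluster 6 and 9.89% of cluster 9. In cluster 3 they were seen in 33.5% and 26.7% of cells, and in cluster 8 in 54.3% and 17.5%. The order of the subunits in each cluster was thus the same per cell as in summed UMIs.

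Some genes varied less over clusters 6, 9, 7 and 10. SCN3A ranged between 242 and 331 CPM over them, CACNA1B between 259 and 351 CPM, and SCN3B between 58.6 and 67.7 CPM. KCNH7 was highest in cluster 10, at 896 CPM, and KCNB2 in cluster 7, at 652 CPM. CACNB2 stood at 577 CPM in cluster 7 and at 83.0 CPM in cluster 6, so the cluster with most CACNA2D1 had least of this beta subunit, while cluster 9, second in CACNA2D1, had 339 CPM.

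Clusters 3 and 8 had more UMIs per cell, with medians of 7372 and 9575, and doublets were not called. Cluster 8, led by CNTN5 and GABRA2, stood out with CACNA1C at 418 CPM, KCNH1 at 203 CPM, CACNA1E at 113 CPM and SCN2A at 89.8 CPM. It held 47.8% of all CACNA1C UMIs and 47.6% of all CACNA1E UMIs of day 5 in 3.42% of the cells. Its share of all UMIs was larger than its share of cells, with 3798889 of the 50922769 UMIs on shared genes. Without clusters 3 and 8, CACNA1E stood at 5.48 CPM in neuron-like cells against 10.9 CPM in the others, with a log2 ratio of -0.99, while that ratio was 1.53 with them. KCND3 and KCNQ5 then joined KCNC2 as lower genes. CACNA1C remained higher without them, at 92.3 CPM against 21.4 CPM.

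Among the cells that were not neuron-like, cluster 0 was the largest, with 2773 cells. At least 2-fold above the rest it had 4 of 11 mesenchymal or fibroblast, 2 of 5 astrocyte and 1 of 10 neural progenitor markers. The oligodendrocyte precursor and immune lists had 1 each, and with these mixed markers cluster 0 was given no name. It held 81.2% of all KCNC2 UMIs of day 5, at 116 CPM, and had the highest KCNMA1, at 260 CPM, and KCNQ5, at 64.7 CPM, of the 13 clusters. KCNC2 was seen in 8.44% of its thinned cells and in 1.497% of neuron-like cells. Cluster 4 had the highest KCNQ3, at 333 CPM. It had 5 of 11 mesenchymal or fibroblast markers at least 2-fold above the rest, COL14A1 among them. Others went the other way, with TWIST1 at 0.285 CPM, LUM at 53.0 CPM and DCN at 3.14 CPM. Over all cells outside the neuron-like clusters these 3 stood at 2.41, 89.7 and 5.68 CPM. So KCNQ3 and KCNQ5 were highest in different clusters, outside the neuron-like ones.

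**Figure D5:**
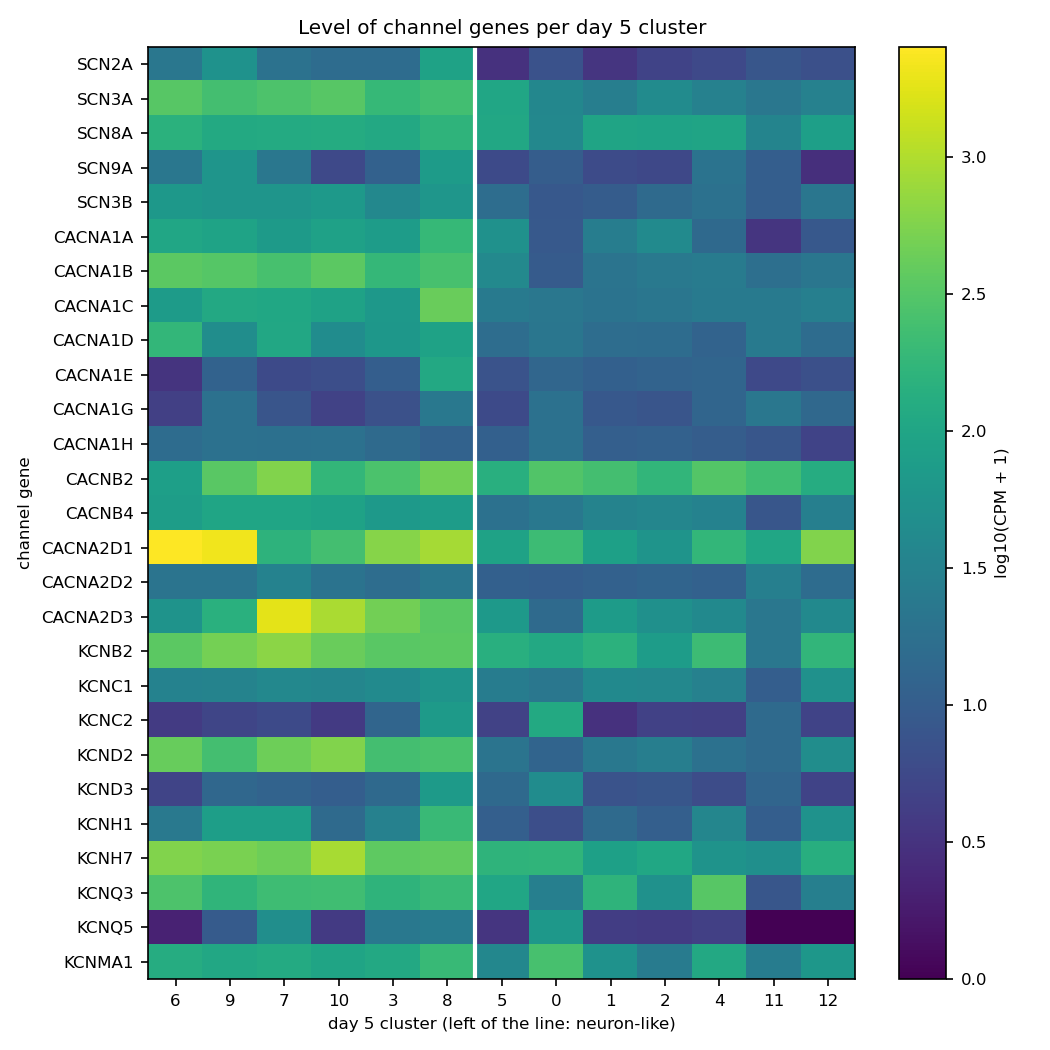
Level of the 27 channel genes at 10 CPM or more at day 5 in each of 13 day 5 clusters, as log10(CPM + 1) from dark to light; clusters left of the white line are neuron-like. CACNA2D1 is brightest in clusters 6 and 9, CACNA2D3 in clusters 7 and 10, and KCNC2 is high in cluster 0 and cluster 8.

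At day 3, 4 clusters were found and channel levels were more even. CACNA1A stood at 125 CPM in cluster 0 and 50.3 CPM in cluster 1, which was led by RORB, and KCNC1 at 35.9 and 15.4 CPM. CACNA1G went the other way, at 1.39 CPM in cluster 0 and 18.3 CPM in cluster 1, and CACNA2D1 stood at 33.5 and 63.1 CPM. MALAT1 took 23.0% of UMIs in cluster 0 and 12.5% in cluster 1.

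Other genes of the same systems gave a measure of how the list compares. Of 46 other voltage-gated alpha subunits, 12 could be compared between day 5 and day 3, with 11 higher and 1 lower, and of 34 other auxiliary subunits 17, with 14 higher and 1 lower. Both shares are like that of the 36 genes. Of 26 inward rectifier, leak and small-conductance potassium channels, 8 could be compared, with 6 higher and 1 lower. Of 13 listed anchoring and scaffold genes, from ANK3 to DLG4, SCRIB and LRP4, 12 could be compared, with 6 higher and 2 lower. The highest at day 5 were KCNH8 at 510 CPM, KCNT2 at 262 CPM and KCNH5 at 194 CPM among the alpha subunits, FGF13 at 709 CPM, DPP10 at 258 CPM and FGF14 at 233 CPM among the auxiliary ones, KCNN3 at 51.1 CPM, and the anchoring genes CNTNAP2 at 700 CPM, ANK2 at 470 CPM and ANK3 at 453 CPM. DPP10 and KCNIP4 are partners of the A-type channels, and KCNIP4 stood at 155 CPM.

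The same lists were counted in neuron-like cells over the other day 5 cells, where 7.57% of all genes were higher and 6.73% lower. Of the other alpha subunits, 1 of 12 was higher and 3 were lower, among them KCNH5, at 66.4 CPM in neuron-like cells and 258 CPM in the others. The higher share of these subunits is near the background. Of the auxiliary subunits, 5 of 16 were higher and 1 lower. Of the anchoring and scaffold genes, 8 of 12 were higher and 0 lower, with CNTNAP2 at 1730 and 188 CPM, ANK2 at 1092 and 161 CPM and ANK3 at 937 and 212 CPM. Differences between the lists were not tested.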

How the data were processed

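Single-cell RNA counts of 3 human libraries were used, 1 per group. The authors deposited UMI counts per gene and barcode without normalization, per the file headers as matrices of 33538 genes at days 0 and 3 and 36601 at day 5. Per the submitters' processing notes, Cell Ranger 4.0.0 and GRCh38 were used. The sources used here do not say if intron or antisense reads were counted. The 36 genes and all lists were chosen with earlier results of these data known.

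At day 5, where all 2037119 barcodes were given, those with 2154 UMIs or more were called cells. Kept cells had 500 or more UMIs, 300 or more genes and no more than 20% mitochondrial UMIs. Doublets were neither called nor removed. CPM used the 32732 shared genes, and levels under 3 UMIs entered ratios as 3 UMIs. A ratio printed against 1 to 3 UMIs used those UMIs, with an exact interval. Genes at 10 CPM or more in a library are described with values, and at most 4 per other list, those with the highest CPM.

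Intron lengths and spans come from GENCODE 29. Bins of intron length used genes with at least 10 UMIs. Cells were clustered per library with scanpy 1.11.5 and leidenalg 0.10.2, without channel genes (2000 variable genes, 30 components, 15 neighbours, resolution 0.5). The neuron-like rule and the 1% MALAT1 limit were set after the clusters were seen. TMM factors came from edgeR 4.0.16, for scaling only. The calls were tested on simulated data. No column was left without a sample. Alternatives covered cell calls, filters, scaling, limits, free RNA, thinning, clustering and bins.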

Additional observations from a re-analysis of the deposited data

How the results depend on the processing

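Some counts of channel genes called moved with the processing. The counts in this paragraph stand without the share over all genes, so they show only how the calls depend on a setting. Between day 3 and day 0 the lower genes were 5 in place of 2 with TMM factors and with the median of ratios, 1 with mean per-cell CPM and 1 with cells thinned to 1000 UMIs. A limit of 1 CPM gave 10 higher and 5 lower, and a limit of 50 CPM gave 3 higher and 1 lower. At 50 CPM the higher genes were 11 for day 5 over day 3 and 11 for day 5 over day 0. Asking for a log2 ratio at least 1 above that of the intron length bin left 16 higher for day 5 over day 0. Leaving out genes that overlap another gene of at least 1 CPM, an alternative chosen after seeing the data, gave 2 higher and 1 lower for day 3 over day 0, 11 higher for day 5 over day 3, 12 higher and 1 lower for day 5 over day 0, and 9 higher and 0 lower in neuron-like cells, with fewer genes to call. Leaving out neuron-like clusters 3 and 8, also chosen after seeing the data, gave 3 lower genes and turned the CACNA1E log2 ratio, neuron-like over other day 5 cells, to -0.99. With TMM factors the KCNQ5 log2 ratio, day 5 over day 0, was -2.15e-05. Of the log2 ratios of called genes under each alternative, 831 stayed within the counting interval of the reported value, and 182 kept their direction but moved beyond it. Other cell calls, filters, clustering settings and free RNA subtraction at 10% changed none of the counts by over 1.5 times.

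No paired analysis was possible because each group is 1 library with no replicate number. Preparation, depth and day cannot be told apart, and the spread between libraries is unknown. The day 3 library is shallowest, so that 3 UMIs there are 0.160 CPM, and genes under about that level are not detectable at this depth.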
